A study of Mus musculus with 24 samples.

Results

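Genes that bind, take up and activate fatty acids in the liver were followed through a diet study in mice. The group holds 10 genes: the fatty acid binding proteins Fabp1, Fabp2, Fabp4 and Fabp5, the uptake proteins Cd36, Slc27a2 and Slc27a5, the acyl-CoA synthetases Acsl1 and Acsl5, and lipoprotein lipase, Lpl. They were chosen by name, and every probe set whose platform annotation lists 1 of these symbols and no other was used. This gave 17 probe sets for 9 of the 10 genes, out of 34958 probe sets for 18194 genes in all. Fabp4 had 4 probe sets, Cd36 had 3, Fabp1, Fabp5 and Lpl had 2 each, and Fabp2, Slc27a2, Slc27a5 and Acsl5 had 1 each. Acsl1 was not analysed here, as no probe set carried its symbol alone.

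The livers came from 18 male C57BL6J mice, 6 per diet, each read on 1 Affymetrix array. The LF mice ate a low-fat diet, the HF mice a 45% high-fat diet, and the HF+P mice the high-fat diet with 5% powder of Japanese yam propagules, the small tubers that form on the vine. All mice had started on the low-fat diet, ate their test diet for 4 weeks and fasted for 16 h before the liver was taken, so every group shows the fasted state. The labels give no age of the animals. Each HF array appears in a value set with the LF arrays and again in a separate set with the HF+P arrays, and each comparison was made within its own set.

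The deposited values look like log2 intensities but differ between arrays far less than such intensities do. The SD over 12 arrays had a median of 4.17e-06 over the probe sets of the LF and HF set and 4.27e-06 in the other set. No fold changes are therefore given. The size of a change is the standardized difference, in pooled within-group SDs with a 95% interval. A probe set was called where the p from limma, adjusted by the Benjamini-Hochberg method over the 34958 probe sets, lay below 0.05. Values of single mice are given as deposited or as their distance from the mean of the control group in the same pooled SDs. The livers carried the hepatocyte markers, with a mean deposited value over 7 measured markers near 14.04 in each LF and HF array, while the 4 measured fat cell markers stood near 6.60 and the 7 enterocyte markers near 6.61, below the median of all probe sets, 6.90.

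Long-chain fatty acids reach the liver from the blood, either as free fatty acids released by fat tissue during fasting or from triglyceride-rich lipoproteins that Lpl hydrolyses at the vessel wall. CD36 and the SLC27 transport proteins bring them into the cell, acyl-CoA synthetases trap them by coupling them to coenzyme A, and the small cytosolic FABP proteins carry them, poorly soluble as they are, to membranes, mitochondria, peroxisomes and the nucleus. Hepatocytes contain mainly FABP1, enterocytes FABP1 and FABP2, fat cells and macrophages FABP4 and FABP5. Several of these genes are known targets of the PPAR nuclear receptors, which bind fatty acids themselves.

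The start regions of Fabp1 and Fabp2 are shown because these close relatives are both read in liver, and Fabp2 was the member called in this study while neither probe set of Fabp1 was. Each line holds the 250 bases before the listed start, 5′ to 3′ on the plus strand of GRCm38.p6 from RefSeq, chr6:71199629-71199878 for Fabp1 and chr3:122894822-122895071 for Fabp2. Capitals mark a DR1 match and a TATAAA.
Fabp1: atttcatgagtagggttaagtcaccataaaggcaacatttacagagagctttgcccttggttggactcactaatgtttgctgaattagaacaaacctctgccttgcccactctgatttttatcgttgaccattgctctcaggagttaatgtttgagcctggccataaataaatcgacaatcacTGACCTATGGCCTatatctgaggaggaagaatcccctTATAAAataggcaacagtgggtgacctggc
Fabp2: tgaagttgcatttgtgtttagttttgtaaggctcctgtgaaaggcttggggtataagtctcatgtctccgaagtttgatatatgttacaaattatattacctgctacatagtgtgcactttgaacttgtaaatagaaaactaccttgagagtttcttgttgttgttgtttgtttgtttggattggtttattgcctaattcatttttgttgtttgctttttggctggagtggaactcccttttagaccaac

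A DR1 is the type of element to which PPAR with RXR and HNF4A bind, and was searched as 2 copies of AGGTCA spaced 1 base apart, on both strands, with up to 2 mismatches over the 12 fixed bases. It was found on the minus strand of Fabp1 with 1 mismatch, from 67 to 55 bases before the start, and TATAAA, also searched on both strands, from 30 to 25 bases before it. Neither motif overlaps the other, and neither occurs in the window of Fabp2. Of 32851 promoter windows of this length, 3.24% held a DR1 under this definition, 0.484% one with at most 1 mismatch, and 12.4% held TATAAA. The table lists windows for 5 members. That of Cd36 held a DR1 with 2 mismatches from 63 to 51 bases before its listed start, and those of Slc27a2 and Acsl5 held none. The windows of Cd36 and Acsl5 lie within the listed spans of these genes, so they precede a start inside the gene. Windows of Fabp4, Fabp5, Slc27a5 and Lpl were not used here. These are matches of letters, not measured sites.

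The comparison of HF with LF asked what high-fat loading does to the liver. Of the 17 probe sets, that of Fabp2 was called lower in HF, 0 were called higher and 16 were not called (limma, Benjamini-Hochberg). Among all probe sets, 0.561% were called lower and 0.369% higher. At an unadjusted p below 0.05 stood 7 of the 17, those of Fabp2, Acsl5, both of Lpl, 2 of Fabp4 and 1 of Cd36, against 14% of all probe sets, though probe sets of 1 gene are not independent of each other. All 7 had negative differences. Every probe set of Fabp2, Fabp4, Cd36, Acsl5 and Lpl was lower in HF, those of Fabp5, Slc27a2 and Slc27a5 were higher, and the pair for Fabp1 was split, with a median standardized difference of -1.06 over the 17 against -0.00145 over all probe sets.

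**Figure D1:**
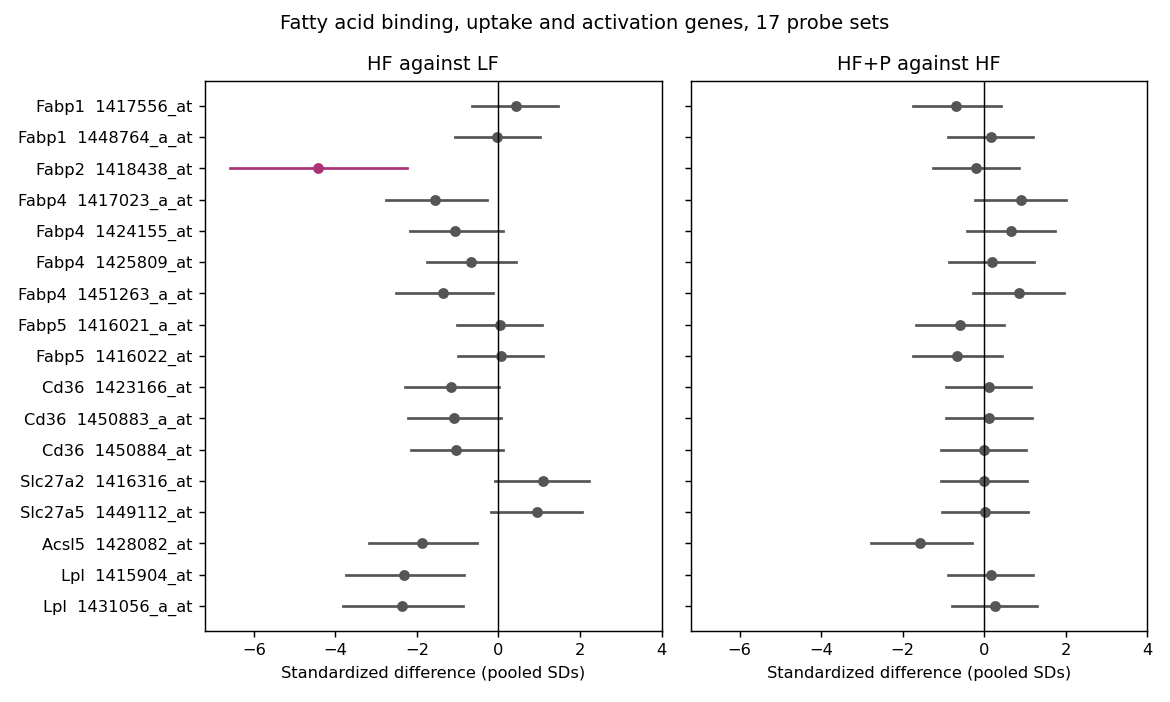
Standardized difference (x axis, pooled SDs) with its 95% interval for each of the 17 probe sets, HF against LF on the left and HF+P against HF on the right, 6 mice per group; the coloured point marks the probe set called by limma. Fabp2 stands apart at -4.44 on the left and near 0 on the right, and both Lpl probe sets lie at -2.31 and -2.37 on the left without being called.

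Fabp2, the binding protein best known from the intestinal epithelium, had deposited values of 12.00623 (lowest), 12.00639 (median) and 12.00662 (highest) in the LF mice. In the HF mice these were 12.00565, 12.00582 and 12.00591. The groups did not overlap, with all 6 HF mice below all 6 LF mice, which held for 1.06% of all probe sets. With n = 6 mice on each diet, Fabp2 fell by 4.44 pooled SDs, with a 95% interval from -6.59 to -2.23 and an adjusted p of 0.00368 in limma. In a piece of whole liver, fewer cells of a type and less RNA per cell cannot be told apart. Of the 7 enterocyte markers, whose mean deposited value near 6.61 lay below the median of all probe sets, 4 had higher values in HF and 0 were called. Their median standardized difference was 0.07, and the score of the list in each mouse, the mean distance of its markers from the LF mean, ran from -0.66 to 0.35 in LF and from -0.12 to 0.59 in HF. Fabp2 was called in all 12 fits that left out 1 mouse. After quantile normalisation it had -1.19 (adjusted p = 0.140), in data where its rank among the probe sets spanned 1 place over the 12 arrays.

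Fabp1, the abundant binding protein of hepatocytes, was not called by either probe set. The standardized differences were 0.42 (95% interval -0.65 to 1.47) for 1417556_at and -0.03 (-1.07 to 1.02) for 1448764_a_at. For 1417556_at the LF mice lay between -1.17 and 1.98 pooled SDs from the LF mean and the HF mice between -0.53 and 1.36, so the groups overlapped throughout. After median centring both were called lower, at -1.92 and -1.81 (limma, adjusted p = 0.00606 and 0.00723), as were 30539 of the 34958 probe sets. Fabp5, the epidermal type also made by macrophages, had the widest spread of the members between mice. The LF values of its probe set 1416021_a_at were 9.0802, 9.1191 and 9.1888 (lowest, median, highest) and the HF values 9.0903, 9.1255 and 9.1841. The HF range lay inside the LF range, and the standardized differences of its 2 probe sets were 0.03 and 0.06 (adjusted p = 0.990 and 0.978, limma).

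Fabp4, the binding protein of fat cells, macrophages and capillary endothelium, had negative values in all 4 probe sets, -1.55, -1.35, -1.06 and -0.68, and none was called. In 1417023_a_at the LF values were 8.34107, 8.34126 and 8.34369 (lowest, median, highest) and the HF values 8.33998, 8.34018 and 8.34134. LF mouse 2 was far above the other LF mice, and 5 of 6 HF mice lay below all LF mice, HF mouse 8 being the exception. The standardized difference was -1.55 (95% interval -2.77 to -0.29; limma, adjusted p = 0.193). Without LF mouse 2 it was -2.07 (adjusted p = 0.119). After quantile normalisation 1417023_a_at was called lower, at -1.83 (limma, adjusted p = 0.0375), as were 5414 of the 34958 probe sets.

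The same LF mouse 2 stood out in Adipoq, a hormone gene of fat cells, at 2.86 pooled SDs from the LF mean where the other LF mice lay between -0.78 and -0.31. The 6 HF mice lay between -0.80 and -0.50. Of the 4 measured fat cell markers 1 had a higher value in HF, 0 were called and the median was -0.25. The fat cell score ran from -0.69 to 1.28 in LF, with LF mouse 2 highest, and from -0.92 to 0.74 in HF. The part of fat cell RNA in the Fabp4 values was not tested. Over the LF and HF arrays, 1417023_a_at and 1451263_a_at ordered 58 of 66 pairs of mice the same way, whereas pairs with 1424155_at or 1425809_at matched in 40 to 46. Over the HF and HF+P arrays the first 2 matched in 57, and 1424155_at matched them in 56 and 61. Pairs with 1425809_at matched in 40 to 45 there. So 1425809_at tracked other differences in both value sets, and 1424155_at only in that of LF and HF.

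**Figure D2:**
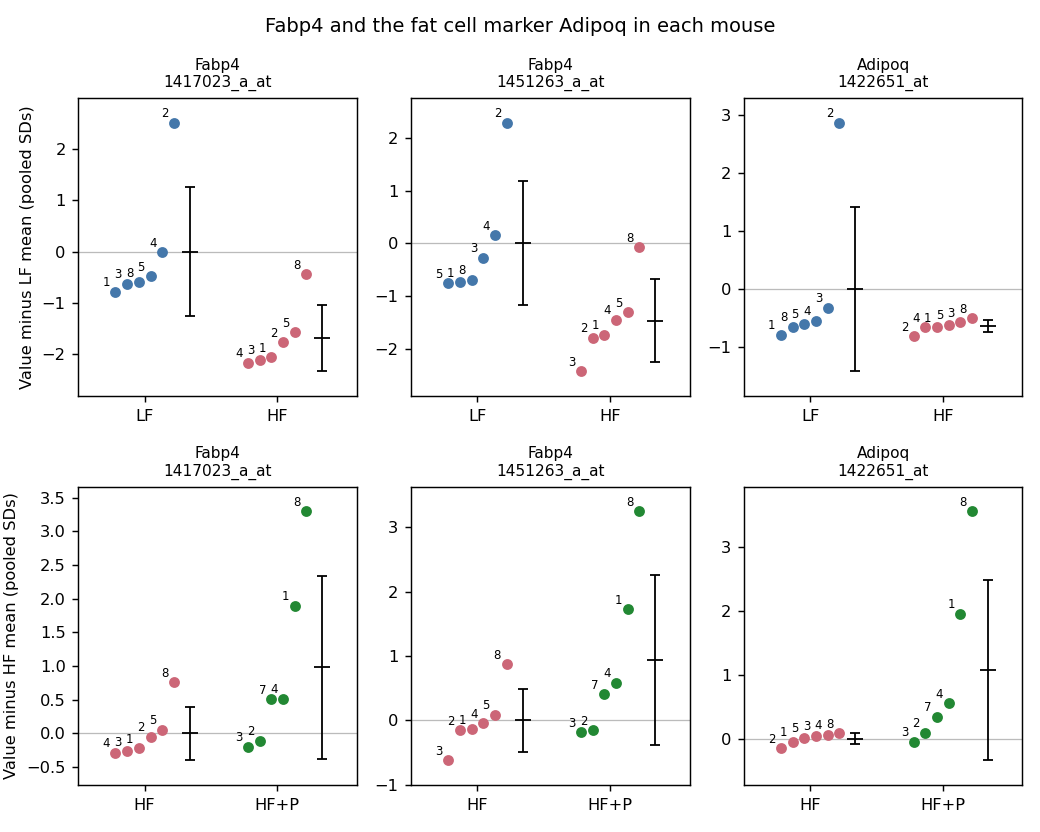
Distance of each mouse from the control mean in pooled SDs (y axis) for 2 probe sets of Fabp4 and for Adipoq; the numbers are mouse numbers, points are ordered by value, and the bar gives the group mean with its SD. The upper row shows LF and HF, where LF mouse 2 is highest in every panel, and the lower row HF and HF+P, where HF+P mice 8 and 1 are highest.

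Cd36, the scavenger receptor and translocase for long-chain fatty acids, was read by 3 probe sets that ordered 64 to 66 of 66 pairs of mice alike. In 1450883_a_at the LF values were 9.49319, 9.50054 and 9.50525 (lowest, median, highest), and the HF values were 9.49278, 9.49589 and 9.49951. The ranges overlapped, with LF mouse 1 almost as low as the lowest HF mouse and LF mouse 3 also inside the HF range. The standardized differences were -1.16, -1.10 and -1.04 (adjusted p = 0.347, 0.376 and 0.405, limma). Slc27a2 and Slc27a5, which encode FATP2 and FATP5, the liver's transport proteins with very-long-chain and bile acyl-CoA synthetase activity, had values of 1.09 (95% interval -0.08 to 2.21) and 0.96 (-0.19 to 2.06). Neither was called (adjusted p = 0.940 and 0.761, limma), and in Slc27a2 3 of 6 HF mice lay above all LF mice. Their deposited differences were 9.17e-08 and 3.22e-07, smaller than the shift of the array medians between HF and LF, 3.36e-05. That shift exceeds the difference of 91.4% of probe sets. After median centring both genes were called lower, at -2.05 and -2.04 (limma, adjusted p = 0.00571 for each), as were 30539 of the 34958 probe sets.

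Acsl5, an acyl-CoA synthetase of the mitochondrial outer membrane and endoplasmic reticulum, had deposited values of 12.007976, 12.007978 and 12.007984 (lowest, median, highest) in LF. In HF they were 12.007971, 12.007973 and 12.007978. All 6 HF mice lay under the LF mean and 5 lay below every LF mouse, HF mouse 3 being the exception. The standardized difference was -1.88 (95% interval -3.18 to -0.53) with an adjusted p of 0.128 in limma. The deposited difference of Acsl5, -5.50e-06, was also smaller than the shift of the array medians between HF and LF, 3.36e-05. After median centring Acsl5 was called lower, at -2.41 (limma, adjusted p = 0.00571), as were 30539 of the 34958 probe sets.

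Lpl gave nearly the same picture in both of its probe sets, which ordered 63 of 66 pairs of mice alike. In 1415904_at the LF values were 8.83358, 8.83418 and 8.83448 (lowest, median, highest), and the HF values were 8.83226, 8.83250 and 8.83397. In 1431056_a_at the LF values were 7.65281, 7.65326 and 7.65377, and the HF values were 7.65177, 7.65192 and 7.65311. In each, 5 of 6 HF mice lay below all LF mice, and HF mouse 3 lay inside the LF range. The standardized differences were -2.31 (95% interval -3.73 to -0.84; adjusted p = 0.0652) and -2.37 (-3.80 to -0.88; adjusted p = 0.0610), short of the threshold in limma. Without HF mouse 3 they were -4.31 and -4.23, and both probe sets were called lower (limma, Benjamini-Hochberg adjusted p = 0.0109 and 0.0117). As HF mouse 3 had the highest HF values, leaving it out was bound to enlarge the fall. Each probe set was called in 1 of the 12 fits that left out 1 mouse. Both Lpl probe sets were also called lower with array weights and with dimmer probe sets left out. The same held after quantile normalisation and after median centring, where 5414 and 30539 of the 34958 probe sets were called lower.

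HF mouse 3 also had the highest HF score of macrophage and Kupffer cell markers, 2.46, where the other HF mice lay between -0.31 and 0.91 and the LF mice between -0.85 and 1.57. All 8 of these markers had higher values in HF and 0 were called, with a median of 0.63, and the mean deposited value of the list ran from 8.8345 to 8.8494 in LF and from 8.8347 to 8.8454 in HF. The scores of HF mouse 3 for fat cell markers, 0.74, and for muscle markers, 1.46, were the highest of the HF group as well. In Adipoq, however, a marker of the fat cell list, every HF mouse lay between -0.80 and -0.50 pooled SDs from the LF mean. The fat cell and muscle lists stood below the median of all probe sets, 6.90, with mean deposited values near 6.60 and 6.62 in HF. Lpl is made by macrophages, fat cells and muscle more than by adult hepatocytes. The part of these cells in its values was not tested.

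**Figure D3:**
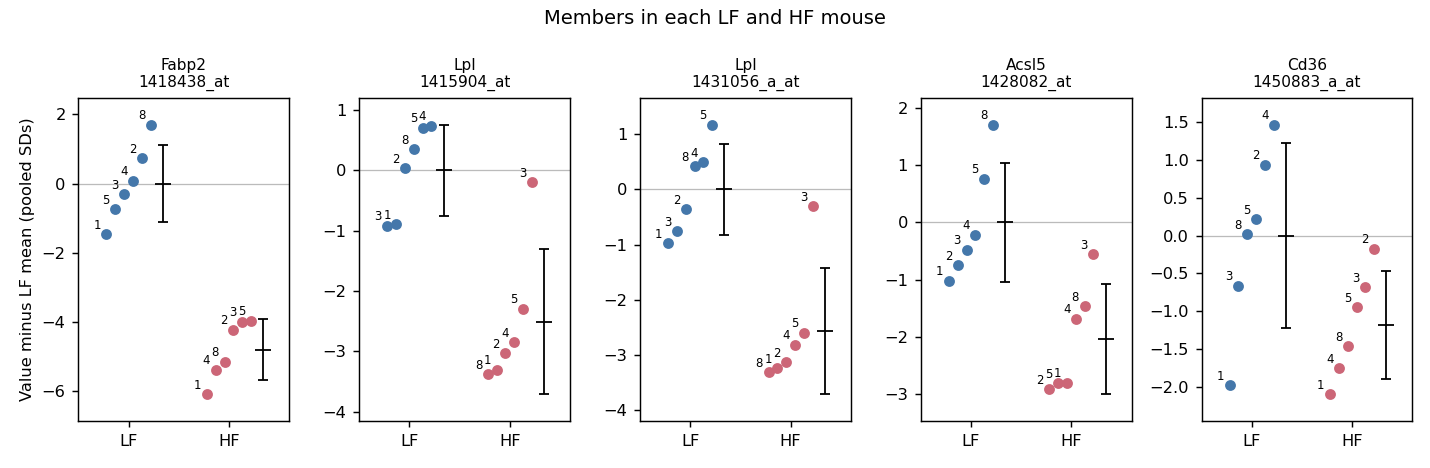
Distance of each LF and HF mouse from the LF mean in pooled SDs (y axis) for Fabp2, both Lpl probe sets, Acsl5 and 1 Cd36 probe set; the numbers are mouse numbers, points are ordered by value, and the bar gives the group mean with its SD. Fabp2 separates the groups, while in Lpl and Acsl5 HF mouse 3 sits near the LF mice and in Cd36 LF mouse 1 sits with the HF mice.

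The genes whose levels followed that of Fabp2 most closely over the 12 LF and HF arrays were Apoc2, Lipa and Unc119b. Likeness was the root mean square distance between profiles scaled to a mean of 0 and an SD of 1, and it was 0.233 for Apoc2, 0.266 for Lipa and 0.293 for Unc119b, against a median of 1.36 over all genes. Apoc2 encodes the cofactor that Lpl needs, and Lipa the acid lipase of lysosomes. In each of the 3 genes all 6 HF mice lay below all 6 LF mice, with standardized differences of -4.02, -4.11 and -2.76. They were picked for a profile that Fabp2's fall already shapes, so these values are a description.

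Among 45 measured genes of a list of 50 others that handle fatty acids, 2 were called higher in HF, 2 lower and 41 were not called (limma, Benjamini-Hochberg), where 0.456% of all genes were called higher and 0.72% lower, each gene being read by its brightest probe set. The median standardized difference of the list was -0.02, against 0.01 over all genes. Acsl3, an acyl-CoA synthetase of the endoplasmic reticulum and of lipid droplets, rose by 5.95 (95% interval 3.16 to 8.71; adjusted p = 0.000556), and its other probe sets had values of 2.44 and 3.06, the latter called. Its LF values were 7.787158, 7.787244 and 7.787272 (lowest, median, highest) and its HF values 7.787481, 7.787574 and 7.787659, with no overlap. Acss2, which makes acetyl-CoA from acetate in the cytosol, rose by 2.62 (1.05 to 4.13; adjusted p = 0.0459), and its direction turned to -2.56 after quantile normalisation. Its other probe sets, at 2.06 and 0.35, were not called.

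Apoc2 fell by 4.02 (-6.01 to -1.97; limma, adjusted p = 0.00652), from LF values of 12.40223, 12.40237 and 12.40255 (lowest, median, highest) to HF values of 12.40184, 12.40194 and 12.40205. Acbd4, an acyl-CoA binding protein of peroxisomes, fell by 2.79 (-4.36 to -1.17) with an adjusted p of 0.0383 in limma. It had 0.33 after quantile normalisation and -2.32 (limma, adjusted p = 0.0666) in its other probe set. The deposited difference of Acbd4, -1.26e-05, was smaller than the shift of the array medians between HF and LF, 3.36e-05. Acbd4 and Acss2 were each called in 2 of the 12 fits that left out 1 mouse, and Acsl3 and Apoc2 in all 12. In a fit with the mouse number as a block, Apoc2 had -3.04 and was not called (limma, adjusted p = 0.0603). That value is in SDs left after the mouse numbers were fitted, so its size does not compare with -4.02. The next in size were Acsm1, a mitochondrial synthetase for medium-chain acids, at 2.38 (adjusted p = 0.0604), Gpihbp1, which carries Lpl across the capillary wall, at -2.13 (0.0861), Mfsd2a, a transporter of lysophospholipids, at -2.11 (0.0870), and Lrp1, a lipoprotein receptor, at 2.01 (0.0995), and none of these was called. In Acsm1 and in this probe set of Lrp1 the highest LF mouse was below the lowest HF mouse, but the other probe set of Lrp1 had -0.40 (-1.45 to 0.67). Mfsd2a was called lower after quantile normalisation and after median centring, as were 5414 and 30539 of the 34958 probe sets. Mfsd2a was also called lower with the mouse number as a block, at -10.39 (limma, adjusted p = 0.00434). This value too is in SDs left after the mouse numbers were fitted, so its size does not compare with -2.11. The deposited difference of Gpihbp1, -1.34e-05, was smaller than the shift of the array medians between HF and LF, 3.36e-05.

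**Figure D4:**
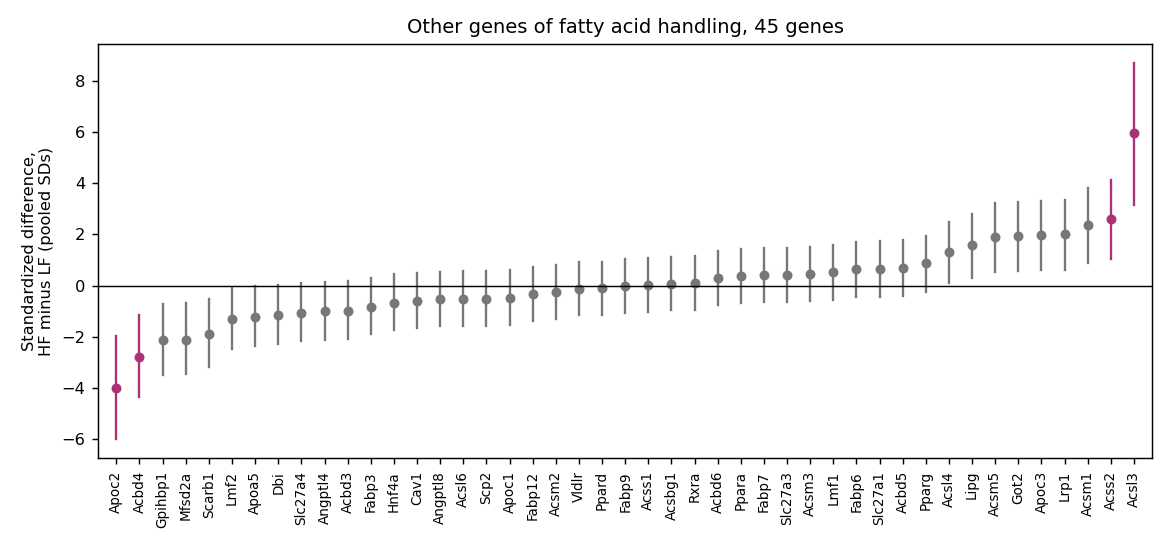
Standardized difference between HF and LF (y axis, pooled SDs) with its 95% interval for the 45 measured genes of the list, ordered by size, 6 mice per group; coloured points are the 4 genes called by limma. Apoc2 and Acbd4 are at the low end and Acss2 and Acsl3 at the high end, and most other intervals include 0.

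The comparison of HF+P with HF asked what the propagules add to the high-fat diet. Of the 17 probe sets 0 were called by limma in either direction, where 0.00286% of all probe sets were called. At an unadjusted p below 0.05 stood 1 of the 17, that of Acsl5, against 7.11% of all probe sets. The values ran from -1.57 to 0.91 with a median of 0.11. A p above the threshold does not show that the diets act alike, and with 6 mice per group the intervals are wide.

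For Acsl5 the HF mice lay -1.10, -0.14 and 1.80 pooled SDs (lowest, median, highest) from the HF mean and the HF+P mice -2.63, -1.92 and -0.48. All 6 HF+P mice lay under the HF mean and 4 lay below every HF mouse. The standardized difference was -1.57 (95% interval -2.78 to -0.29; limma, unadjusted p = 0.0226, adjusted p = 0.633), and after median centring it was -0.21. Fabp2, called in the other comparison, had -0.21 here (-1.25 to 0.85; adjusted p = 0.961). Its HF values were 11.84596, 11.84599 and 11.84601 and its HF+P values 11.84594, 11.84597 and 11.84605, with the HF+P mice on both sides of the HF range. Both comparisons use the same HF animals, so their directions are not independent.

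All 4 probe sets of Fabp4 had positive values in HF+P, 0.91, 0.87, 0.67 and 0.18. In 1417023_a_at the HF values were 8.28666, 8.28708 and 8.28951 (lowest, median, highest) and the HF+P values 8.28690, 8.28883 and 8.29638. HF+P mice 8 and 1 were the highest, at 3.30 and 1.90 pooled SDs from the HF mean, and the other 4 overlapped with the HF mice. The same 2 mice were the highest in Adipoq, at 3.56 and 1.96, where the HF mice lay between -0.15 and 0.09 and the other HF+P mice between -0.05 and 0.55. Of the 4 fat cell markers 2 had higher values in HF+P and 0 were called, and the median was -0.09. The score ran from -0.55 to 0.44 in HF and from -0.70 to 1.17 in HF+P. HF+P mouse 8 had the 1.17, while HF+P mouse 1 had 0.38, inside the HF range, so over the whole list mouse 1 did not stand out. Without mice 8 and 1, left out after their high Fabp4 values had been seen so that a drop was bound to follow, the Fabp4 values were 0.41, 0.33, 0.20 and 0.11. The part of fat cell RNA in them was not tested.

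The remaining members lay between -0.68 and 0.26. Fabp5 had -0.60 and -0.67 (adjusted p = 0.840 and 0.826, limma), with HF values of 9.2336, 9.2532 and 9.2872 (lowest, median, highest) and HF+P values of 9.2354, 9.2437 and 9.2658 in 1416021_a_at. These ranges overlapped, as did those of Fabp1, with -0.68 and 0.16. Cd36 had 0.11, 0.12 and -0.01, and in all 3 of its probe sets HF+P mouse 1 stood above the other HF+P mice and above every HF mouse. Lpl had 0.16 and 0.26, with HF+P mouse 8 highest in both probe sets. This mouse also had the highest HF+P score of muscle markers, 1.34, and of fat cell markers, 1.17. The mean deposited values of these lists in HF+P, 6.45 to 6.49 and near 6.58, lay below the median of all probe sets, 6.85. Slc27a2 and Slc27a5 had -0.00 and 0.02.

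In the list of other fatty acid genes 0 of 45 were called by limma, where 0.0055% of all genes were. An unadjusted p below 0.05 was found for 3 of 45, near the 7.02% of all genes, and the median was 0.21 against 0.02 over all genes. The largest values were those of Slc27a4, the transport protein FATP4, at 1.35 (95% interval 0.13 to 2.53), Ppard, the PPAR delta receptor, at 1.31 (0.10 to 2.48), Cav1, the caveola coat protein, at 1.15 (-0.03 to 2.28), and Hnf4a at 0.96 (-0.18 to 2.06). The other probe set of Ppard ran the opposite way, at -0.85 (-1.94 to 0.27), while the other 3 of Hnf4a had 1.11, 1.39 and 0.56. The 4 genes called against LF had -0.77 for Acsl3, -0.61 for Acss2, -0.38 for Apoc2 and 0.27 for Acbd4. Of their other probe sets, those of Acsl3 had -0.30 and -1.12, those of Acss2 0.06 and -0.25, and that of Acbd4 0.70.

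Since the HF arrays were processed with either partner group, the members could be read in the same animals on both occasions. Of the 15 pairs of HF mice, 14 or 15 kept their order in 16 of the 17 probe sets, and 10 did in the Fabp4 probe set 1425809_at. The spread between the HF mice was less stable than their order. The SD of Fabp2 was 5.53 times as large among the LF and HF values as among the HF and HF+P values, and that of Slc27a5 was 0.338 times as large. The size of a deposited difference therefore depends on the value set, and only standardized differences were set side by side.

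**Figure D5:**
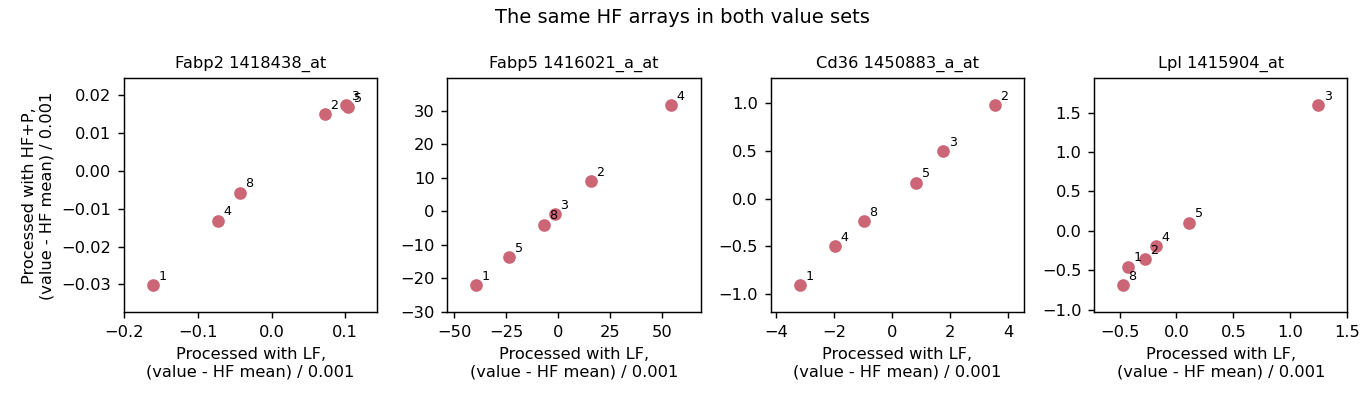
Each HF mouse's deposited value minus the HF mean, drawn with the same multiplier on both axes, as processed with the LF arrays (x axis) and with the HF+P arrays (y axis) for Fabp2, Fabp5, Cd36 and Lpl; the numbers are mouse numbers. The order of the mice is nearly the same on both axes in every panel, while the scales differ, most for Fabp2.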

How the data were processed

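Liver RNA from LF, HF and HF+P mice was extracted with Trizol, labelled with biotin and hybridised to Affymetrix arrays, per the labels' protocols. The deposited table holds 45101 probe sets in 24 columns, and 0 further columns were left unmapped. Per the submitters' processing notes the authors used R 2.7.2. The sources used here do not give how probe sets were summarised or normalised, nor the log base. The deposited values, 5.36 to 15.0, were handled as log2, as the authors' columns have that range; how arrays were scaled could change directions of small differences. The platform annotation gave 34958 probe sets 1 symbol, 932 several and 9211 none listed.

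Each value set was fitted alone with limma 3.58.1 (lmFit and eBayes, R 4.3.3; 6 mice per group, no covariate, two-sided). The p-values were adjusted by Benjamini-Hochberg over those 34958 probe sets, at a threshold of 0.05. Standardized differences are Hedges-corrected, with 95% intervals from the noncentral t distribution at 10 degrees of freedom. A marker score is the mean over a list's genes of the distance from the control mean in pooled SDs. The number of arrays limits the precision. On simulated data of 34958 probe sets for HF against LF, 57.8% of shifts of 3 SDs, 96.9% of 5 SDs and 100% of 8 SDs were called, and for HF+P against HF 47.2%, 94.5% and 100%. Named were all member probe sets, list genes called in either comparison, the 4 next in size per comparison, and the 3 genes most alike to a called member. Members, lists and tests were chosen with earlier results of these data known. Other settings varied the probe sets tested, scaling, scale, limma options, threshold, a block for mouse number and the mice included.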

Additional observations from a re-analysis of the deposited data

Results flagged for a closer look

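In 16 of 116 groups of 6 mice examined for the members and the other named fatty acid genes, 1 mouse lay far from the others by Dixon's test. The value given is the gap to the nearest mouse divided by the range of the group. Chance marks about 1 group in 20, and probe sets of 1 gene and the 2 processings of the HF arrays repeat each other, so these are not 16 separate events.

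For Fabp4, LF mouse 2 was highest in 1417023_a_at (0.764) and in 1451263_a_at (0.701). HF mouse 8 was highest in 1417023_a_at in either processing (0.659 and 0.670), and HF mouse 3 was lowest in 1424155_at (0.636). LF mouse 2 was also highest for Cav1 (0.788), the caveola protein that fat cells and endothelium hold in large amounts. For Cd36, HF+P mouse 1 was highest in all 3 probe sets (0.829, 0.798 and 0.767).

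For Lpl, HF mouse 3 was highest in 1415904_at (0.660, and 0.652 as processed with HF+P) and in 1431056_a_at (0.761 and 0.692), and HF+P mouse 8 was highest in 1431056_a_at (0.713). LF mouse 3 was lowest for Acsl3 (0.633), and HF mouse 1, as processed with HF+P, was lowest for Ppard (0.660).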

How the results depend on the processing

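For HF against LF, 1 of the 17 member probe sets was called as the values were deposited. The count was 3 with dimmer probe sets left out, with array weights and at a threshold of 0.1, each time Fabp2 and both Lpl probe sets. It was also 3 after quantile normalisation, for Lpl and Fabp4. After median centring it was 13, all lower, from every measured member but Fabp5. Leaving out 1 mouse gave 1 to 3 calls, the 3 without HF mouse 3. Of the 45 list genes 4 were called, against 8 after quantile normalisation, 35 after median centring (30 lower, 5 higher), 8 at a threshold of 0.1, and 2 to 4 without 1 mouse. Over all probe sets the 325 calls (129 higher, 196 lower) became 5570 (156 higher, 5414 lower) after quantile normalisation, 30910 (371 higher, 30539 lower) after median centring, 612 with dimmer probe sets left out, 933 at the threshold of 0.1, and 150 to 370 without 1 mouse (150, 165, 206 and 214 without LF mouse 5, 3, 1 or 8, and 164 and 179 without HF mouse 2 or 4). Median centring subtracts the shift by which the HF array medians exceeded those of LF, 3.36e-05, from nearly every comparison. That shift is larger than the difference of 91.4% of probe sets, so most turn lower by this step alone. The origin of the shift and the causes of the other moves were not tested. Quantile normalisation works on ranks. It gave no value for Fabp1, Slc27a2, Slc27a5 and Acsl5 in either comparison, nor for Fabp2, Apoc2 and Hnf4a in HF+P against HF. These held the same rank on every array, like 8.72% and 9.05% of all probe sets in the 2 comparisons. In HF against LF, Apoc2 did not vary within the groups after quantile normalisation, so it has no standardized difference there. It was still counted among the 8 list genes called. In HF+P against HF no setting called a member or a list gene.

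For HF against LF, directions turned after quantile normalisation for Acss2 (-2.56) and Acbd4 (0.33), and after median centring for Fabp1 1417556_at (-1.92), Slc27a2 (-2.05) and Slc27a5 (-2.04). Without 1 mouse, Fabp1 1448764_a_at ran from -0.54 to 0.29 and Fabp5 from -0.26 to 0.37 in 1416021_a_at and from -0.24 to 0.41 in 1416022_at.

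For HF+P against HF, directions near 0 turned for several members. After quantile normalisation the values were -0.99 for Fabp4 1425809_at, -0.0784 for Cd36 1450883_a_at, 0.0139 for Cd36 1450884_at, 0.99 for Acss2 and -1.07 for Ppard. Slc27a2 had 0.54 after median centring and 0.0504 with array weights. Without HF+P mice 1 and 8 together, a setting chosen after the data were seen, Fabp1 1448764_a_at had -0.27, Cd36 -0.32 and -0.29 in 1423166_at and 1450883_a_at, Slc27a2 1.49, and Lpl -0.17 and -0.13. Without 1 mouse, the ranges were -0.13 to 0.66 for Fabp1 1448764_a_at, -0.89 to 0.0171 for Fabp2, -0.16 to 0.40 for Fabp4 1425809_at, -0.31 to 0.46, -0.25 to 0.45 and -0.63 to 0.29 for Cd36, -0.23 to 0.41 for Slc27a2, -0.24 to 0.29 for Slc27a5, -0.21 to 0.62 and -0.19 to 0.66 for Lpl, and -0.65 to 0.0318 for Apoc2.

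Mouse numbers recur between the groups, and the labels do not say that they pair animals. Deviations of same-numbered mice correlated at -0.14 to 0.11 for LF and HF and at 0.0439 to 0.22 for HF and HF+P, and 8 of 12 and 5 of 10 mice correlated best with their own number. With the mouse number as a replicate block 287 probe sets were called in place of 325, 1 member (Fabp2, adjusted p = 0.030 in limma) and 5 list genes for HF against LF, Apoc2 not among them (-3.04, adjusted p = 0.0603) but Mfsd2a called lower (-10.39, adjusted p = 0.00434) and Acsm5 higher, and 0 and 0 for HF+P against HF. For HF+P against HF the block fit held only mice with shared numbers, so HF mouse 5 and HF+P mouse 7 were left out. Directions turned there for Fabp2 (0.0859), Cd36 1450884_at (0.0811) and Slc27a5 (-0.38). Leaving out HF+P mouse 7 alone, with no block, also turned them, to 0.0171, 0.0839 and -0.24. Block values are in SDs left after the mouse numbers were fitted, so their sizes do not compare with those of the main fit.

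The precision rests on 6 arrays per group, and the signal over background of each probe set is not known. The rank of a probe set spanned a median of 3 places over the LF and HF arrays, so that scaling bears on small differences.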
